A study of Mus musculus with 3 samples.

Results

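Blocks of unmethylated CpGs that held no annotated gene start were described in mouse embryonic stem (ES) cells, using reduced-representation bisulphite sequencing (RRBS) of 3 libraries, which came from wild type cells (1 library), Dnmt3a KO cells (1) and Dnmt TKO cells (1). RRBS cuts genomic DNA with the restriction enzyme MspI and reads the methylation of CpGs in the resulting short fragments, so CpG-rich sequence is covered best and most of the genome is not. Wild type and Dnmt3a KO cells were of a mixed 129-C57Bl/6 strain, and Dnmt TKO cells were of strain J1. Dnmt3a KO cells were made from the mixed strain with CRISPR guides against an exon that all DNMT3A isoforms share, and still carry Dnmt3b and Dnmt1. Dnmt TKO cells lack Dnmt1, Dnmt3a and Dnmt3b and served as the unmethylated background. All were grown in 15% serum with LIF. The wild type was kept on feeder cells or gelatine and both mutants on gelatine, so genotype, culture and, for Dnmt TKO, strain cannot be told apart. With 1 library per genotype, intervals and tests cover the counting of reads in these libraries and not the variation between cultures.

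The blocks were chosen by measured values. Among 327114 CpGs covered by over 20 reads in both wild type and Dnmt3a KO (shared CpGs), a block was a run of at least 5 consecutive CpGs that were each under 20% methylated in wild type, with no gap over 1000 bp and a length of at least 300 bp. Of 5765 such blocks, 5274 lay within 2000 bp of a transcript start of the GENCODE vM1 annotation of mm9, 4 lay on unplaced sequence that this annotation does not cover, and 487 had no start within 2000 bp. Low methylation in wild type inside a block is therefore the rule and not a result, whereas the values in Dnmt3a KO and Dnmt TKO and those of the flanking CpGs (within 4000 bp of a block and in no block) were not used to choose it. The coverage limit and the wild type level of the first CpG beyond an end are exceptions. The blocks nearest to the distance limit were at Grin2d and Gata6, 2004 and 2006 bp from a start. Just outside it were blocks at Sema6b and Gdnf, at 1979 and 1989 bp. The highest wild type CpGs inside the 487 blocks were at 19.7% and 19.8%, and the lowest CpGs that ended one were at 20%.

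Most CpGs in a mammalian genome are methylated, and unmethylated stretches are mainly CpG islands, which usually mark promoters. Unmethylated islands away from known starts, called orphan islands, can be promoters of unannotated transcripts, regulatory elements or CpG-rich exons, and at developmental genes they are often bound by Polycomb proteins. DNMT3A and DNMT3B place new methylation, DNMT1 copies it at replication, and the edge of an island is where methylation rises from the unmethylated centre to the methylated surroundings.

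To show what these blocks look like as sequence, the central 300 bases are given for the longest block, for the block farthest from any start, for the block with the highest level in Dnmt3a KO and for the block with the largest increase in its flanks among those with at least 5 flanking CpGs. They were read from the plus strand of mm9, and capitals mark CpGs that were shared CpGs.
Mir183 block, chr6:30124428-30124727: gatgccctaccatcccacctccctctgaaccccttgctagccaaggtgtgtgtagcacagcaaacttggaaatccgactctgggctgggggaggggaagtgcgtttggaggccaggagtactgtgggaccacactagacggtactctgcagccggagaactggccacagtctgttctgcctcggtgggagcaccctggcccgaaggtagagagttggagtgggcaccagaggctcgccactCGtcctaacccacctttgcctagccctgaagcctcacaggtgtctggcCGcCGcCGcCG
U7 block, chr8:52001615-52001914: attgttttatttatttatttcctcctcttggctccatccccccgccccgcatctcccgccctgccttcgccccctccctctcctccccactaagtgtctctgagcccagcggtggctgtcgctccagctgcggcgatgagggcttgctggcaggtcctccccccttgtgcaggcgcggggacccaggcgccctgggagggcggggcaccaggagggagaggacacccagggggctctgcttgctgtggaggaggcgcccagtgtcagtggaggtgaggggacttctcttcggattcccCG
Begain block, chr12:110272020-110272319: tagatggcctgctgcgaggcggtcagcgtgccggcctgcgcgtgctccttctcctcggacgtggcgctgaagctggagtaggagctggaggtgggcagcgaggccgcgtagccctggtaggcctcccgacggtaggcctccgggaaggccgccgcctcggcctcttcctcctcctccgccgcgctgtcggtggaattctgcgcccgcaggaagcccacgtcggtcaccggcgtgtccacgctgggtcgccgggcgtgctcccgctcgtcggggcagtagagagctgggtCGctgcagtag
Pax7 block, chr4:139377630-139377929: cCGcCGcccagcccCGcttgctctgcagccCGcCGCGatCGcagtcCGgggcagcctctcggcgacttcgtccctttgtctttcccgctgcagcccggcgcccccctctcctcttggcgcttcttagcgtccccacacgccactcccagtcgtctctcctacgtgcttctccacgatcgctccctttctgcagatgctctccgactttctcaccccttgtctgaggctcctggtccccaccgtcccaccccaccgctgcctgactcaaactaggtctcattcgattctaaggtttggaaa
Few CpGs in the centres were measured, since RRBS reads fragment ends: 5 of 12 in the Mir183 window, 1 of 15 in the U7 window, 1 of 36 in the Begain window and 8 of 25 in the Pax7 window. The U7 and Mir183 windows had a low ratio of observed to expected CpGs (0.461 and 0.416), and the Begain and Pax7 windows a ratio of 0.946 each.

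For contrast, the flanking windows with the largest loss of methylation in Dnmt3a KO among blocks with at least 5 flanking CpGs, at Wnt7b and Tbx2, are given in the same way.
Wnt7b flank, chr15:85452710-85453009: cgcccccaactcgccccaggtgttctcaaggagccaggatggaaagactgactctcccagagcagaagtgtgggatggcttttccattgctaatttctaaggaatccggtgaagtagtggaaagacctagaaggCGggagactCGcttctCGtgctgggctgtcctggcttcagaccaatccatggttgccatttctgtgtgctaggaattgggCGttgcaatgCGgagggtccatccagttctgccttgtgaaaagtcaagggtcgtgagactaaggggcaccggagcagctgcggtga
Tbx2 flank, chr11:85648087-85648386: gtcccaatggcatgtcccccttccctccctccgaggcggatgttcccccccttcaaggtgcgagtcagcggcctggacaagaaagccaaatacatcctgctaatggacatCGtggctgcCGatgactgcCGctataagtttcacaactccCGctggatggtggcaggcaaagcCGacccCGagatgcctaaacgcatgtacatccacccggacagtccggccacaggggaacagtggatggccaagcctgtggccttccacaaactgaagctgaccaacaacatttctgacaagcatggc
These flanks were poorer in CpGs than the Begain and Pax7 centres, with 11 and 13 CpGs in 300 bases and ratios of 0.494 and 0.531. Their 5 and 6 capitalised CpGs were at 64.9% to 82.6% and 51.4% to 79.4% in wild type, against 0% for each of the 8 capitalised CpGs of the Pax7 centre.

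The blocks split almost evenly between genes and the space between them. Of the 487, 212 (43.5%) were intergenic and 275 (56.5%) overlapped a gene, of which 188 touched a coding exon, 68 lay in introns, 8 touched UTR exons and 11 other exons. In 5 of the intragenic blocks the only gene was the long read-through model Gm20388. The median distance to a start was 8598 bp and the largest 352899 bp, and the nearest start belonged to a gene that is not protein-coding for 101 blocks. The median block was 553 bp long with 23 shared CpGs, and lengths reached 2817 bp. Blocks with a gene start had a median of 632 bp and 31 shared CpGs. Chromosomes 1 and 8 held the most, with 50 each, and the X chromosome 4.

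Blocks in coding exons sat towards the ends of their genes. Of 257 blocks in protein-coding genes, 183 (71.2%) lay beyond the midpoint of the gene and 132 (51.4%) overlapped its last exon. Among the 188 in coding exons, 161 (85.6%) lay beyond the midpoint and 124 (66.0%) overlapped the last exon. The 60 intronic blocks of protein-coding genes were placed differently, with 13 (21.7%) beyond the midpoint. No test was made of this difference, since blocks near the first exon were removed by the rule.

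The base composition of the blocks was island-like, though less so than at gene starts. Median GC content was 66.3% against 69.1% in blocks with a start, and the median ratio of observed to expected CpGs was 0.812 against 0.880. A ratio under 0.6, below the usual limit for a CpG island, was found in 64 blocks (13.1%), against 3.55% of blocks with a start. Intronic blocks had the lowest median ratio, 0.728.

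Short motifs were counted in the central 300 bases, on both strands, by exact letters. GGGCGG, the GC box bound by SP and KLF factors, was in 52.0% of the blocks, against 68.8% of blocks with a start and 67.4% of all blocks. ACTTCCGG, bound by ETS factors, was in 1.23%, against 3.72% with a start and 3.51% of all blocks. The octamer ATGCAAAT, bound by POU factors, was in 9 of 487 (1.85%), against 0.360% with a start and 0.486% of all blocks. GCGCATGC (NRF1), CACGTG (an E box) and AGGGGGCGC (part of the CTCF motif) were in 2.05%, 7.19% and 1.85% of the blocks, and in 1.98%, 6.56% and 2.33% of all blocks. Each motif was counted on its own, and of these ACTTCCGG contains CCGG. CCGG, the MspI site that RRBS needs, was in 93.0% of the blocks and 96.7% of all blocks. The differences in GC content stand beside these counts, and their part in them was not tested.

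Some of the blocks hold gene starts that a later annotation records. The 100 bases around the starts of RefSeq genes (GRCm38.p6) were looked up as exact sequence in mm9, and 91 blocks (18.7%) had such a start within 2000 bp, 48 (9.86%) of them inside the block. The same lookup found a start at 4095 (77.6%) of the 5274 blocks with a GENCODE vM1 start, so it misses some. The block farthest from any vM1 start, near U7 on chromosome 8, was 750 bp from the RefSeq start of 1700019L22Rik, and the next was 140 bp from that of Tmem200c. The longest block, near Mir183, held the start of Mirc35hg, the host transcript of a sensory-organ microRNA cluster. Blocks at Kcnh8 (a potassium channel), Fat3 (an atypical cadherin), Pcgf5 (a Polycomb subunit) and Sipa1l2, 123045, 122633, 29894 and 76979 bp from a vM1 start, held the RefSeq start of the same gene. These genes were picked after their values were seen.

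The blocks with a matched RefSeq start were less methylated in both libraries than the others. Over 2914 CpGs in the 91 blocks, wild type averaged 0.784% and Dnmt3a KO 0.361%, and over 10551 CpGs in the other 396 blocks it was 1.68% and 0.703%. The median ratio of observed to expected CpGs was 0.860 and 0.798. Of the 91 blocks, 4 (4.40%) reached a wild type mean of 5%, and of the 396, 54 (13.6%).

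Inside the blocks, methylation stayed low in every library and was lowest in Dnmt TKO. Over 13465 shared CpGs the mean level was 1.49% in wild type. It was 0.629% in Dnmt3a KO, which is -0.857 percentage points from wild type (95% counting interval -0.921 to -0.793). Blocks with a start were at 0.422% and 0.182% over 180577 CpGs. The median block without a start was at 0.911% in wild type and 0.306% in Dnmt3a KO, 413 blocks were lower in Dnmt3a KO, 64 higher and 10 equal, and 106 had no methylated read in Dnmt3a KO. Because wild type values chose the blocks, this difference is given as a description. Depth was a median of 86 reads per CpG in wild type and 36 in Dnmt3a KO.

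No gain of methylation inside the blocks was detectable in Dnmt3a KO at this depth, apart from 1 CpG. No CpG inside them was called higher in Dnmt3a KO by at least 20 percentage points in a two-sided Fisher's exact test of the reads with Benjamini-Hochberg adjustment over all shared CpGs (adjusted p under 0.05). Without the size limit, 19 CpGs passed, 18 lower and 1 higher. Over all shared CpGs the same test without a size limit called 2.51% lower and 0.0578% higher. At 84.2% of the CpGs inside the blocks no read was methylated in Dnmt3a KO, against 61.3% in wild type, and 13 CpGs reached 20% in Dnmt3a KO.

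Residual methylation inside the blocks differed with their place. Coding exon blocks averaged 2.14% in wild type and 0.888% in Dnmt3a KO over 5389 CpGs, intronic blocks 1.21% and 0.477% over 1636 CpGs, and intergenic blocks 0.946% and 0.425% over 6000 CpGs. A wild type mean of at least 5% was reached by 40 of 188 coding exon blocks (21.3%) and 7 of 212 intergenic blocks (3.30%), against 1.78% of blocks with a start. Among the 487 blocks, wild type levels were higher nearer to a start. They were 2.12% in blocks 2000 to 5000 bp away, 1.33% from 5000 to 20000 bp and 0.960% farther away. Blocks with a start within 2000 bp were lower than any of these, at 0.422%. The plot of single blocks by place shows the difference between places as a wider spread for coding exons.

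**Figure D1:**
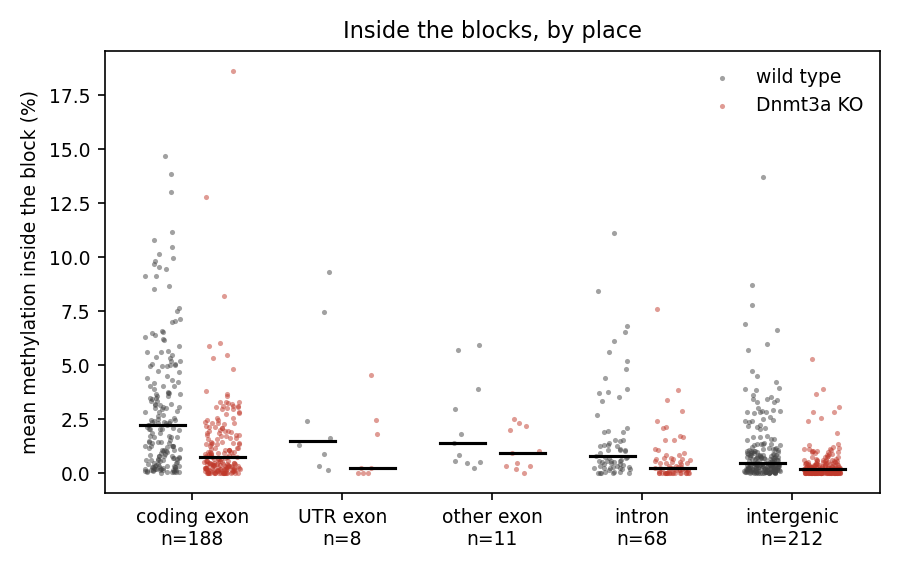
Mean methylation inside each of the 487 blocks (percent, 1 point per block) in wild type (grey) and Dnmt3a KO (red), by the place of the block; black lines are medians over blocks. Coding exon blocks reached the highest levels, up to 14.7% in wild type and up to 18.6% in Dnmt3a KO.

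The highest levels in Dnmt3a KO were in 3 coding exon blocks. The block in Begain (chr12:110271990-110272350), which encodes a postsynaptic protein, averaged 13.8% over 6 CpGs in wild type (64 of 463 reads methylated), and Dnmt3a KO reached 18.6% there (34 of 175). Its highest CpG went from 12.5% in wild type to 34.4% in Dnmt3a KO, with an adjusted p of 0.289 in Fisher's exact test. In Dnmt TKO 0 of 92 reads there were methylated, which allows a share of up to 3.26%. The blocks in Repin1 (chr6:48547047-48547449) and Zfp689 (chr7:134587823-134588235), both zinc finger genes, were at 14.7% and 7.03% in wild type and at 12.8% and 8.20% in Dnmt3a KO.

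The longest blocks were all intergenic and nearly free of methylation, apart from those at Lbx1 and AY036118. The Mir183 block (chr6:30123170-30125986) had 4 methylated of 5941 reads in wild type and 3 of 2724 in Dnmt3a KO. The block 74484 bp from Dhx15 (chr5:52504764-52507274) had 6 of 5430 and 3 of 1965. The block at 2810429I04Rik (chr13:3357724-3360034) had 18 of 3629 and 3 of 1371. The block 3233 bp from Lbx1 (chr19:45304746-45307068), a homeobox gene of muscle precursors and spinal cord, averaged 3.28% in wild type, against 0.538% in Dnmt3a KO.

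The block at AY036118 (chr17:39979959-39982223) stood apart in depth. It held 203 shared CpGs with a mean of 4533 reads per CpG in wild type and 2041 in Dnmt3a KO, and its mean level was 2.90% and 2.81%. Blocks near Samd9l and Gm11668 also exceeded 300 reads per CpG in wild type, and were at 3.89% and 3.29% in wild type and 3.65% and 2.83% in Dnmt3a KO. Reads from repeated sequence can pile up at 1 copy, and whether they did so here was not tested. When all reads were pooled the blocks were at 1.16% in Dnmt3a KO, and without these 3 blocks at 0.560%.

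In Dnmt TKO the blocks were at the background. Of 219635 reads over 2419 CpGs with over 20 reads, 93 were methylated (0.0423%, 95% Wilson interval 0.0346% to 0.0519%), and blocks with a start gave 0.0424%. The AY036118 block contributed 69 of these methylated reads out of 147362. Of 149 blocks with at least 5 such CpGs, the blocks with the highest shares included those at Hoxa11as and Fiz1, each with 1 methylated read (of 126 and 146). On the 2350 CpGs inside the blocks that all 3 libraries covered, wild type averaged 1.70%, Dnmt3a KO 0.879% and Dnmt TKO 0.0427%.

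The flanks lost much of their methylation in Dnmt3a KO. Shared flanking CpGs were present at 207 of the 487 blocks, and 280 had none. Over 2099 such CpGs wild type averaged 19.2% and Dnmt3a KO 9.68%, which is -9.49 percentage points from wild type (95% counting interval -9.77 to -9.20). Taking every flanking CpG with over 20 reads in each library alone, wild type averaged 14.9% (7221 CpGs) and Dnmt3a KO 9.23% (2610 CpGs). Those are different sets of CpGs, so the loss is given for shared CpGs only, which are a minority of the wild type flanking CpGs. The flanks of blocks with a start went from 24.6% to 14.0% over 7702 CpGs, a difference of -10.6 points (-10.7 to -10.4), and 315 CpGs flanked both kinds. Where the mean was taken over block means, the differences were -13.2 and -13.3, and with a distance limit of 5000 bp the order turned (-11.6 against -10.1), so these kinds of block cannot be ranked. On 345 flanking CpGs covered in all 3 libraries wild type averaged 19.6%, Dnmt3a KO 9.29% and Dnmt TKO 0.0580%.

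Single CpGs were then called by Fisher's exact test with an adjusted p under 0.05 and a difference of at least 20 percentage points. In the flanks 170 of 2099 CpGs (8.10%) were lower in Dnmt3a KO and 1 was higher, against 2.45% lower and 0.0532% higher over all shared CpGs. Many shared CpGs have no methylation to lose, so the count was repeated among CpGs of at least 20% in wild type. There, 170 of 757 flanking CpGs (22.5%) were lower, against 17.1% of all such CpGs and 784 of 3242 (24.2%) at blocks with a start. The mix of wild type levels differed, with 671 of the 757 at 20% to 80%, against 29962 of all 46950 such CpGs. At 20% to 80%, 22.2% of flanking CpGs were lower, against 20.0% of all shared CpGs and 26.0% at blocks with a start. At 80% and over the shares were 24.4% (21 of 86 CpGs), 11.8% and 15.6%. The first CpG beyond an end is at 20% or more by the rule wherever it ends the block, and 141 calls lower were left without the first shared CpG outside each end.

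The share of methylation lost varied with the level in wild type. Flanking CpGs under 20% in wild type fell by 60.5% of their mean, from 4.28% to 1.69%. The same class fell by 61.8% in the flanks of blocks with a start and by 54.8% over all shared CpGs outside blocks. CpGs of 20% to 80% fell by 53.3%, from 40.5% to 18.9%, compared with 49.7% in the flanks of blocks with a start and 36.3% over all shared CpGs outside blocks. CpGs of 80% and over fell by 26.9%, from 85.3% to 62.3% (86 CpGs), compared with 20.1% in the flanks of blocks with a start (85.8% to 68.6%) and 17.3% over all shared CpGs outside blocks (86.4% to 71.5%). In percentage points the highest class differed by -23.0 (95% counting interval -25.0 to -20.9), and the same class at blocks with a start by -17.2 (-18.0 to -16.4). These CpGs are few and come in clusters on the same reads, and no test of this difference was made.

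The proportional loss was largest in the step nearest to the block, but the steps draw on different block ends. Within 250 bp of a border the mean fell from 21.0% to 7.74%, a loss of 63.2% of the wild type level over 635 CpGs. From 250 to 500 bp it fell from 26.8% to 13.1% (51.0%), and from 500 to 1000 bp from 35.9% to 20.7% (42.3%). Between 1000 and 2000 bp, and between 2000 and 4000 bp, losses were 41.7% and 41.0%. Wild type levels were lower between 1000 and 2000 bp, at 14.8%. By the rule, the next shared CpG within 1000 bp of an end joins the block if it is under 20%. CpGs within 1000 bp therefore came only from ends at a CpG of at least 20%, which were 146 of 974. Farther CpGs came from ends of either kind, so levels below and above 1000 bp are not a profile around the same blocks. How far this accounts for the lower levels was not tested. Blocks with a start showed losses of 65.3%, 56.1%, 48.7%, 40.9% and 33.4% in the same steps. The steps within 1000 bp hold CpGs that ended a block and so were at 20% or more in wild type by the rule. Without the first shared CpG outside each border the losses at blocks without a start were 61.5%, 50.4%, 41.7%, 41.9% and 41.0%. Leaving it out does not make the steps draw on the same block ends.

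**Figure D2:**
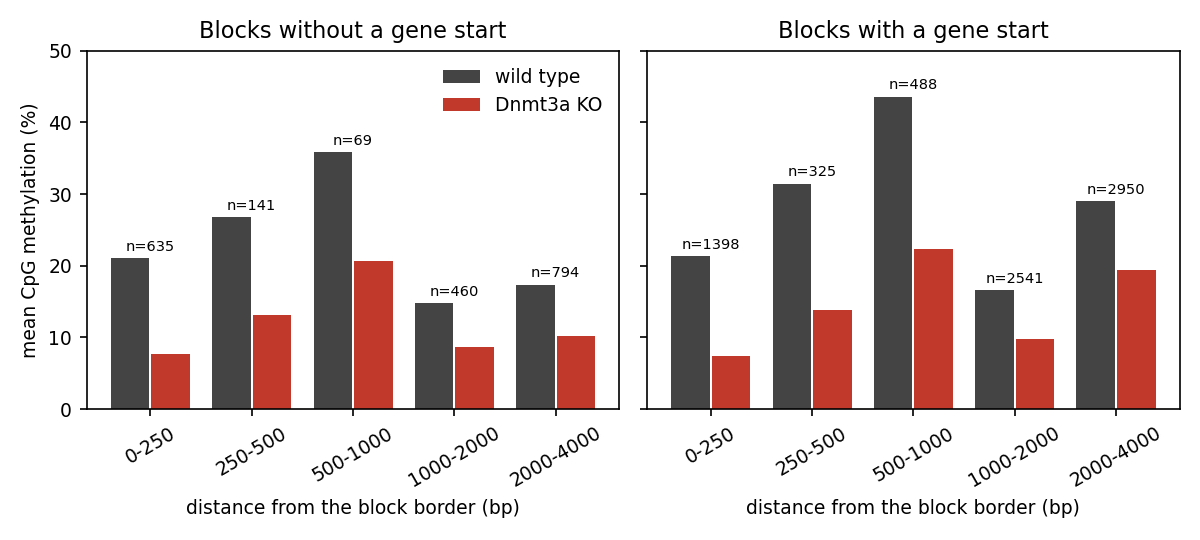
Mean CpG methylation (percent) in wild type (grey bars) and Dnmt3a KO (red bars) by distance from the block border in bp, for blocks without (left) and with (right) a gene start; n is the number of shared CpGs, and counting intervals are not drawn. Dnmt3a KO was lower in every step, and within 250 bp of blocks without a start fell to 7.74%.

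Most CpGs that ended a block in wild type were below the block limit in Dnmt3a KO. Of 974 block ends, 146 (15.0%) ended at a CpG of at least 20% in wild type and the others at a gap in coverage. At these 146 CpGs the median was 26.4% in wild type against 5.83% in Dnmt3a KO, and 128 (87.7%) were under the 20% limit in Dnmt3a KO. Blocks with a start were alike in this, with medians of 27.3% and 6.06% at 438 such CpGs, of which 365 (83.3%) were under 20% in Dnmt3a KO. All of these CpGs were chosen by being at least 20% in wild type, which by itself makes a second measurement lower on average. They are given as a description, with no test.

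Most single blocks followed the mean. Among 146 blocks with at least 5 flanking CpGs, 135 were lower in Dnmt3a KO, 6 higher and 5 equal, and the median difference was -8.76 percentage points. The counting interval lay below 0 for 109 and above 0 for none, and 62 fell by at least 10 points. Neighbouring blocks can share flanking CpGs and are then counted separately. Both blocks near Gbx2 had the same 9, and both in Barx1 the same 35. The differences of the 146 blocks ranged from -44.8 to 0.670. The scatter of flanks of single blocks shows them below the diagonal from low to high wild type levels.

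**Figure D3:**
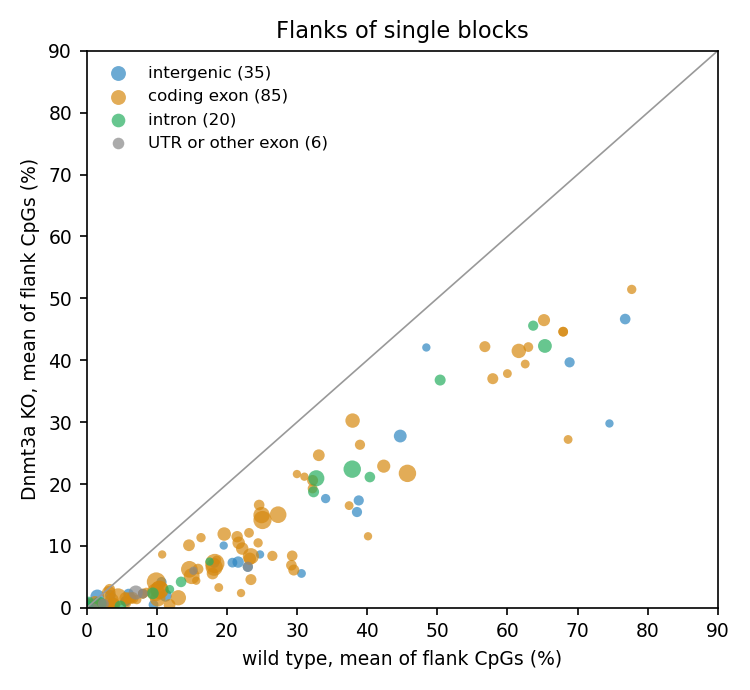
Mean methylation of the flanking CpGs (percent) of each of 146 blocks with at least 5 such CpGs, in wild type (x axis) and Dnmt3a KO (y axis); colour gives the place, larger points have more CpGs, and the line marks equal levels. Of these blocks 135 lay below the line, the lowest by 44.8 percentage points.

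The largest decrease among these 146 blocks was on the lower-coordinate side of a block 43865 bp from Wnt7b, a signalling ligand (chr15:85456116-85456503). Its 5 flanking CpGs, 3182 to 3272 bp from the border and printed above, averaged 74.6% in wild type, against 29.8% in Dnmt3a KO. At chr15:85452934 there were 45 methylated of 56 reads in wild type and 5 of 27 in Dnmt3a KO (80.4% and 18.5%, adjusted p = 4.1e-05, Fisher's exact test), and 3 of the 5 were called lower. The block itself stayed at 0.818% and 0.322%, and in Dnmt TKO 0 of 327 reads were methylated, which allows up to 0.917%.

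At Tbx2, a T-box regulator of heart and limb development, the block overlapped a coding exon (chr11:85650600-85651950), and the flank printed above held 6 CpGs 2334 to 2403 bp away. They averaged 68.7% in wild type, from 51.4% to 79.4%, and 27.2% in Dnmt3a KO, from 14.3% to 46.7%, and 2 were called lower. The block fell from 4.03% to 1.08%.

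Near Mir26b (chr1:74444538-74444842) 9 flanking CpGs averaged 68.9% in wild type and 39.7% in Dnmt3a KO, and 5 were called lower. Neighbouring CpGs there lost unequal amounts. At chr1:74442225 the level went from 72.6% to 17.7% (90 of 124 and 11 of 62 reads, adjusted p = 2.4e-09, Fisher's exact test), and 25 bp further on, at chr1:74442250, from 53.0% to 48.6% (44 of 83 and 18 of 37). Whether these 2 CpGs differed from each other was not tested.

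In Anks1b, a neuronal scaffold gene (chr10:90432265-90432747), the loss was at the border, with 5 CpGs 14 to 88 bp away at 26.8% to 49.5% in wild type and 2.94% to 21.9% in Dnmt3a KO. In Fbxo41 (chr6:85434212-85434609), 7 CpGs 3262 to 3342 bp away averaged 77.7% and 51.4%, and 1 was called lower. The sixth, near 0610010O12Rik, had 10 flanking CpGs at 76.8% and 46.7%.

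**Figure D4:**
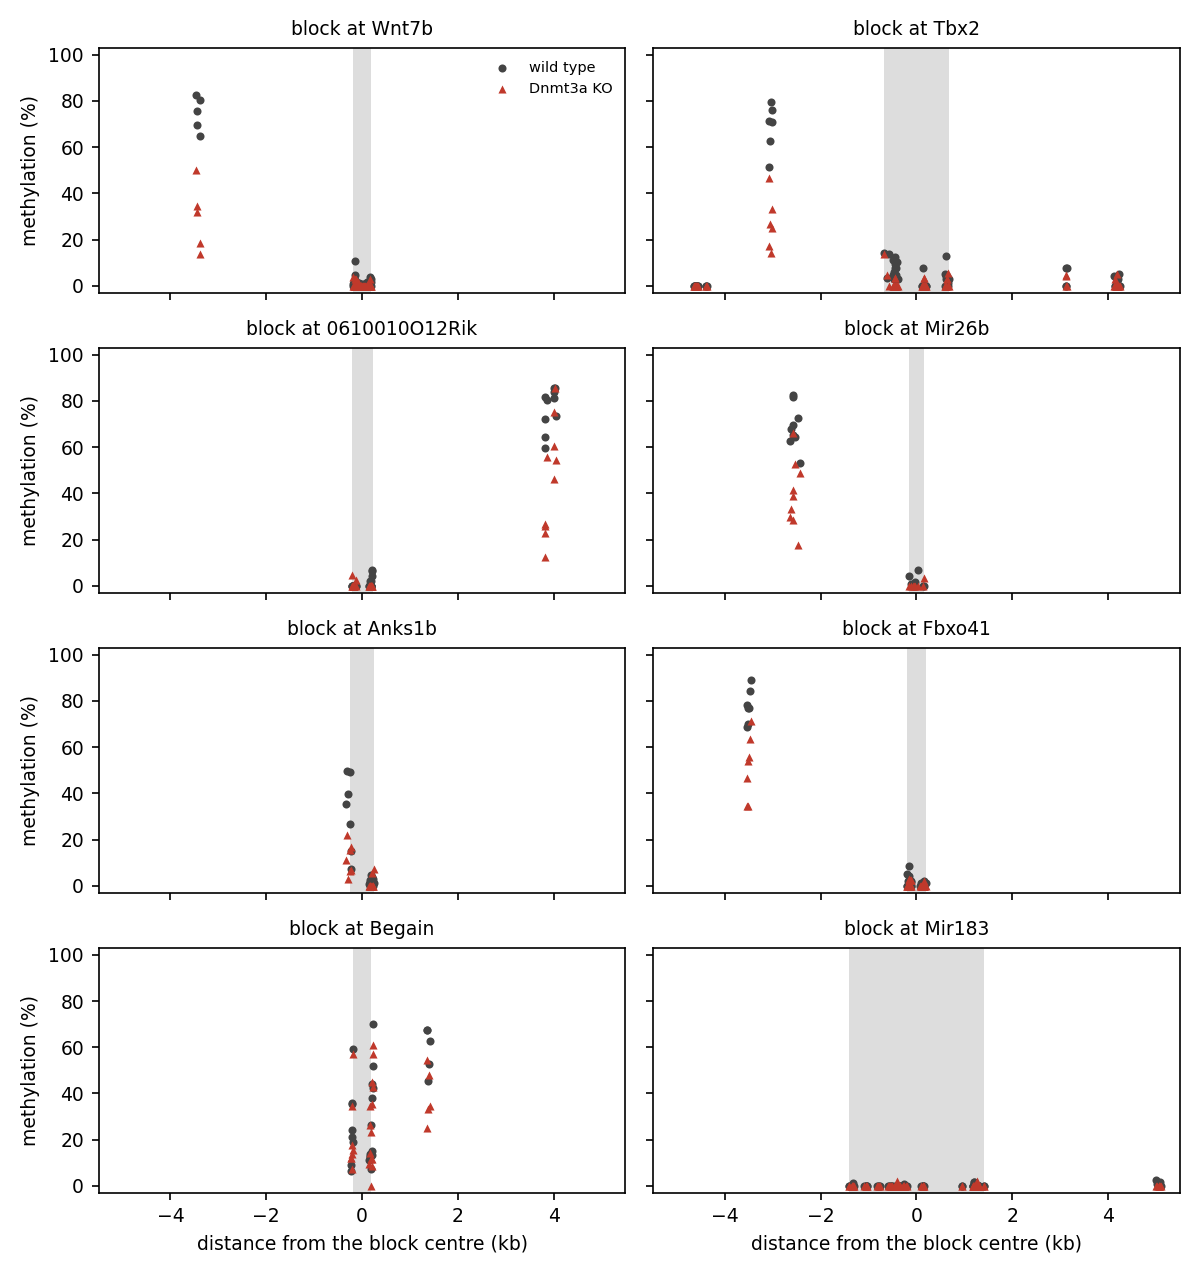
Methylation (percent) of each shared CpG against its distance from the block centre (kb) in wild type (grey circles) and Dnmt3a KO (red triangles), for the 6 blocks with the largest flank decreases among those with at least 5 flanking CpGs and the blocks at Begain and Mir183; shading marks the block. Flanking CpGs at Wnt7b averaged 74.6% and 29.8%, while CpGs inside the blocks stayed under 20% except in Dnmt3a KO at Begain.

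The largest increases among these 146 blocks were small. The flanks at Pax7, Otx1 and Prdm13 went from 0.278% to 0.948%, from 0.122% to 0.522% and from 1.52% to 1.84%, and each counting interval included 0. All of these genes encode regulators of development, and all of these flanks were unmethylated in wild type, as was that near Cbx8, a Polycomb subunit, at 0.102% and 0.137%.

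Intragenic and intergenic blocks were compared last. Flanks of intragenic blocks went from 20.6% to 10.5% over 1631 CpGs (-10.1, 95% counting interval -10.5 to -9.79), and flanks of intergenic blocks from 13.8% to 6.48% over 496 CpGs (-7.28, -7.79 to -6.77). Averaged over blocks instead of CpGs, the differences were -13.1 and -13.7, so the order turned. Among CpGs of at least 20% in wild type, 20.8% of intragenic and 29.8% of intergenic flanking CpGs were called lower. Flanks of blocks over 20000 bp from a start were the most methylated, at 31.8% in wild type and 16.8% in Dnmt3a KO over 218 CpGs (-15.0).

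Developmental regulators were frequent among the genes at these blocks. By gene symbol, 72 blocks (14.8%) at 60 genes lay over or nearest to a listed developmental regulator, against 197 (3.74%) of the blocks with a start. The list was chosen with earlier results known and no test of the difference was made. By its name rule it also takes in Islr2 (2 blocks), which is not an Isl homeobox gene. A gene with several blocks counts several times, and Lhx2 and Lhx5 had 3 each. The 72 blocks were at 1.78% in wild type and 0.570% in Dnmt3a KO. Their 323 flanking CpGs went from 7.99% to 3.13%, with 14 (4.33%) called lower. At listed blocks with a start, 709 flanking CpGs went from 11.0% to 4.34%, with 5.78% called lower. The shares were 8.10% of all flanking CpGs and 2.45% of all shared CpGs. All flanking CpGs went from 19.2% to 9.68%. Their higher wild type mean leaves more room for a call, so these shares do not rank the losses. The share among the more methylated flanking CpGs of this list was not counted.

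The members of this list differed widely. The blocks at Sox17, an endoderm regulator, and 18775 bp from Pax3, a neural crest regulator, were at 0.136% and 0.168% in wild type and at 0.140% and 0.121% in Dnmt3a KO. The block in Ebf2 was at 8.44% in wild type and 2.08% in Dnmt3a KO, and that in Foxa1 had 75 methylated of 1763 reads in wild type and 4 of 630 in Dnmt3a KO. In the flank at Foxa1, which encodes a pioneer factor of endoderm, 13 CpGs went from 11.8% to 0.481% and 4 were called lower, and at Lhx5, a homeobox gene of the forebrain, 8 CpGs went from 8.02% to 2.28%.

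Signalling genes gave 12 blocks (2.46%), against 2.24% of blocks with a start, a list that by its name rule also takes in Ntng2. Their 46 flanking CpGs went from 34.2% to 16.9% (-17.3, 95% counting interval -19.6 to -14.9), with 9 (19.6%) called lower, against 8.10% of all flanking CpGs. With a flank mean this high the shares among CpGs of at least 20% in wild type, 22.5% in the flanks and 17.1% over all shared CpGs, are the nearer comparison. The flank in Wnt6 went from 29.3% to 8.41% over 10 CpGs, and that near Efna2, an ephrin, from 44.7% to 27.8% over 16. Inside the blocks, Wnt6 had 25 methylated of 4063 reads in wild type and 0 of 1498 in Dnmt3a KO, which allows up to 0.200%, and Dhh, a hedgehog ligand, was at 5.03% and 0.804%.

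Chromatin regulators also gave 12 blocks (2.46%), against 1.27% of blocks with a start, among them Rnf220, which the name rule takes in although it is not a Polycomb gene. Intergenic blocks near Cbx8 and Pcgf5, both Polycomb subunits, were at 0.457% and 0% in wild type and at 0% and 0.0541% in Dnmt3a KO. At Kdm6b, an H3K27 demethylase, the flank of an intronic block went from 50.4% to 36.8% over 11 CpGs and that of an intergenic block from 51.4% to 14.3% over 3. The 50 flanking CpGs of this list went from 15.5% to 9.55%, with 2 (4%) called lower, against 8.10% of all flanking CpGs. The share among those of at least 20% in wild type was not counted. The only block at a gene on the list of imprinted genes was in H13, at 0.309% in wild type. It had 0 of 717 methylated reads in Dnmt3a KO, which allows up to 0.418%.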

How the data were processed

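A single RRBS library per genotype was analysed. The authors selected MspI fragments with inserts of 150 to 250 and 250 to 350 bp, amplified for 10 cycles, trimmed reads with Trim Galore, aligned them to mm9 with Bowtie through QuasR and removed CpGs over known polymorphisms. The versions are not given in the sources used here. The deposited tables hold, per CpG, counts of all reads and of methylated reads and the methylation score, a fraction from the authors equal to their ratio; only the counts were used. No CpG was listed with fewer than 10 reads. Wild type, Dnmt3a KO and Dnmt TKO listed 1035670, 918295 and 558703 CpGs at medians of 29, 17 and 12 reads, and 651459, 349400 and 45455 had over 20 reads. The Dnmt TKO library thus limits what can be said of single blocks. Reads carry no molecular identifiers, so intervals cover counting error only.

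Blocks were built with Python 3.11.15, numpy 2.4.6 and pandas 2.3.3, annotated with GENCODE vM1 and checked for CG dinucleotides in mm9. Mean levels are over CpGs. Their intervals (95%) sum binomial variances of CpGs, with 1 methylated and 1 unmethylated read added to the shares. Pooled reads have Wilson intervals (scipy 1.17.1), and a count of 0 a limit of 3 counts. Fisher's exact tests were tested on simulated data and adjusted over all 327114 shared CpGs. They compare libraries and not genotypes. A block's gene is the one it overlaps or else that of the nearest start. Blocks named are the 5 longest, the 3 farthest from a start, the 3 highest in Dnmt3a KO, the 3 highest in Dnmt TKO among blocks with at least 5 CpGs over 20 reads there, the 6 largest flank decreases and 3 largest increases among blocks with at least 5 flanking CpGs, and up to 8 per gene list by length. The members, limits and gene lists were chosen with earlier results of these data known. Blocks on unplaced sequence were left out. Some blocks that the rule for named blocks selects are not reported here.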

Additional observations from a re-analysis of the deposited data

How the results depend on the processing

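Every difference kept its sign under all settings tried, and 89 of 156 recomputed values stayed within the counting interval, or within 1.5 times for counts. No paired analysis was possible because each genotype has 1 library, and no replicate could be left out. Differences are in percentage points, Dnmt3a KO minus wild type. With a coverage over 10, values were 1093 blocks, 48.5% intragenic, -0.949 inside, -13.4 in all flanks, -13.5 in intragenic flanks, -12.8 in intergenic flanks, -13.7 in flanks of blocks with a start, 331 calls lower and 0 calls higher. With a block limit of 10%, values were 51.8% intragenic, 0.411% inside in Dnmt3a KO, -0.429 inside, -7.04 in all flanks, -7.22 in intragenic flanks, -6.53 in intergenic flanks, -8.7 in flanks of blocks with a start, 113 calls lower and 0 calls higher. With at least 10 CpGs per block, values were -8.85 in all flanks, -9.6 in intragenic flanks, -6.58 in intergenic flanks, -10.2 in flanks of blocks with a start and 0 calls higher. With a gap of at most 500 bp, values were -7.55 in all flanks, -8.04 in intragenic flanks, -5.91 in intergenic flanks and -6.25 in flanks of blocks with a start. With a distance limit of 1000 bp, values were -9.83 in all flanks. With a distance limit of 5000 bp, values were 314 blocks, 46.8% intragenic, 0.498% inside in Dnmt3a KO, -0.674 inside, 0.0242% of Dnmt TKO reads, -11.6 in all flanks, -11.7 in intragenic flanks, -11 in intergenic flanks, -10.1 in flanks of blocks with a start and 82 calls lower. With protein-coding starts only, values were 61.7% intragenic and -0.789 inside. With pooled reads, values were 1.16% inside in Dnmt3a KO, -0.526 inside, -8.96 in all flanks, -5.94 in intergenic flanks and -9.35 in flanks of blocks with a start. With means of block means, values were 0.822% inside in Dnmt3a KO, -1.18 inside, -13.2 in all flanks, -13.1 in intragenic flanks, -13.7 in intergenic flanks and -13.3 in flanks of blocks with a start. With the first CpG outside each border left out, values were -8.82 in all flanks, -9.56 in intragenic flanks, -6.2 in intergenic flanks and -9.9 in flanks of blocks with a start. With flanks of 2000 bp, values were -10.9 in all flanks, -11.5 in intragenic flanks, -8.31 in intergenic flanks and -11.1 in flanks of blocks with a start. With flank CpGs near both kinds of block left out, values were -8.8 in all flanks, -9.59 in intragenic flanks and -6.44 in intergenic flanks. With blocks with a matched RefSeq start left out, values were 62.9% intragenic, 0.703% inside in Dnmt3a KO and -0.977 inside. With blocks over 300 reads per CpG left out and pooled reads, values were 0.56% inside in Dnmt3a KO and -8.95 in all flanks. The settings on RefSeq starts and on blocks over 300 reads per CpG, and the distance steps without the first CpG, were chosen after seeing the data. The pooled-read level inside the blocks rested on the 3 blocks over 300 reads per CpG. For the others the cause was not tested, apart from limits that change which blocks and CpGs enter. Depth limits Dnmt TKO most, where 197 of 487 blocks had any CpG over 20 reads.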
